A study of Mus musculus with 6 samples.

Results

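The genes described here are 32 genes of the p53 pathway, taken by symbol from a table of estimated RNA-seq counts for 18124 mouse genes; all 32 were found, each on 1 row, and all 32 passed the filter on low counts. They comprise Trp53, which encodes p53 itself, the genes of 3 proteins that restrain it, and target genes grouped by textbook role as arrest, stress and metabolism, repair and death, with 3 genes of less defined role. The question was whether the arrest, repair and death branches moved together.

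The cells were mesenchymal stem cells of genotype Col1-GFP, sorted from the quadriceps of 6 naïve male mice as positive for a green fluorescent protein driven by the collagen 1 promoter and for the surface marker Sca-1. At passage 4 they spent 72 hours in medium conditioned by 1 of 2 kinds of wild-type bone marrow-derived macrophage, with 3 libraries for each medium. Senescent-medium cells received medium from macrophages made senescent by 300 µM hydrogen peroxide for 3 hours, given again 3 days later and followed by 14 days of culture. Control-medium cells received medium from control, non-senescent macrophages, and the sources used here do not say whether these were kept in culture as long. The cells themselves were not treated with peroxide, and each medium was pooled from 2 collections, so the media differ in the history of their macrophages and possibly in culture time.

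p53 is a transcription factor that is kept scarce by the ubiquitin ligase Mdm2 and kept inactive by its relative Mdm4. Stress that damages DNA or disturbs the nucleolus frees it, and it then switches on genes that halt the cell cycle, repair DNA or start programmed cell death, together with Mdm2, which closes a feedback loop. In stromal cells of muscle and elsewhere, its arrest branch is best known for holding damaged or senescent cells out of the cell cycle. p53 is controlled mainly at the level of the protein, which RNA counts do not measure.

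Libraries held between 17228161 and 21659433 estimated counts. The markers of collagen-producing stromal cells were abundant, with a summed level of 13934 to 14469 counts-per-million (CPM) in senescent-medium libraries and 10694 to 10793 CPM in control-medium libraries over 10 genes. Most of that sum came from Col1a1 (7516 CPM on average in senescent medium, 5361 CPM in control medium) and Col1a2 (4139 CPM in senescent medium, 2856 CPM in control medium). Of the 10, 6 were higher and 2, Pdgfra and Pdgfrb, were lower (log2 fold changes of -0.29 and -0.30), Ly6a did not pass the threshold, and Lum, near 0 in both media, was not tested. Of 10 macrophage markers 5 were listed, summing to 18.1 to 24.2 CPM in senescent-medium libraries and 19.0 to 22.0 CPM in control-medium libraries, and the defining genes Ptprc, Adgre1, Itgam, C1qa and Tyrobp were not among the listed genes. Within that near-equal sum Lyz2 was higher (log2 fold change 0.80) and Cd14 and Csf1r were lower (-1.14 and -0.53). Of 7 endothelial markers 4 were listed (26.3 to 33.2 CPM in senescent medium, 24.2 to 26.5 CPM in control medium) and of 8 myogenic markers only Des was (4.33 to 5.86 CPM in senescent medium, 1.41 to 1.89 CPM in control medium); the part of these markers in the results below was not tested. The labels do not tie the replicates to separate animals or cultures, and a p-value here measures only how far these libraries spread, which may be technical variation. In bulk RNA a smaller number of expressing cells and less RNA per cell cannot be told apart.

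Promoter sequences of these genes were searched for the short consensus sequence of p53. The p53 consensus decamer has 10 bases, namely 3 purines, a C, 2 bases that are A or T, a G and 3 pyrimidines; it is its own reverse complement, so a single search covers both strands, and a classical p53 element is a pair of such decamers. Promoter windows from RefSeq (build GRCm38.p6, 250 bases before to 50 after a start site) were available for 24 of the 32 members, and 10 of these (41.7%) held the decamer, against 8.52% of 11763 genes of the count table with a window. A pair with at most 13 bases between its decamers was found in the windows of 0 members and of 0.051% of those 11763 genes. The stretches below are those of the 6 members with a decamer that also changed between the media, and of Ccng1, the member with the most RNA. The decamer is in capitals and begins between 10 bases (Ei24) and 201 bases (Bax) before the start site, the Ei24 stretch ending where its gene begins, and the minus-strand stretches are written 5′ to 3′ on their own strand.
Mdm2 (chr10:117710925-117710954, minus strand): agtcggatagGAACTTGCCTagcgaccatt
Trp53 (chr11:69580274-69580303, plus strand): acccacggaaGGACTTGCCCttacttgtta
Ppm1d (chr11:85311112-85311141, plus strand): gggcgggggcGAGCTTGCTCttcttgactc
Sesn1 (chr10:41887256-41887285, plus strand): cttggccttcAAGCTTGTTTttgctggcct
Bax (chr7:45467080-45467109, minus strand): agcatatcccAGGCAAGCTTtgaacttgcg
Ei24 (chr9:36797335-36797354, minus strand): cgtgcggcccGGGCATGCCC
Ccng1 (chr11:40755452-40755481, minus strand): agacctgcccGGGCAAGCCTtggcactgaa

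The other members with a decamer in a window were Aen, Polk and Rps27l. Of the 10 members with one, Mdm2 and Ei24 rose, Trp53, Ppm1d, Sesn1 and Bax fell and 4 did not pass the threshold. Of the 14 members whose window held none, 6 rose and 2 fell, and of the 8 members with no window 5 rose and 0 fell. Over all genes tested, 24.6% were higher and 24.9% lower. A match is a run of letters and not a measured binding site, and no match says only that these letters are absent from the window; several p53 elements are known to lie in introns, that of Mdm2 among them.

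Across the 32 members, 13 were higher and 6 were lower in senescent macrophage medium than in control medium, and 13 did not pass the threshold (edgeR quasi-likelihood test, adjusted p under 0.05 over 14644 genes). That is 59.4% of the members, beside a background of 49.5% of all genes tested, with 40.6% of members higher against 24.6% of all genes and 18.8% of members lower against 24.9%. The members' median log2 fold change was 0.055, senescent over control, against -0.00096 over all genes tested, and the median absolute value was 0.19 against 0.23. Of the members, 5 changed by at least 1.5-fold, where 13.7% of all genes were called at that size: Bbc3, Plk2, Perp and Trp53i11 rose and Sesn1 fell. The CPM ranges of the media did not overlap for 14 members that were higher and 9 that were lower in senescent medium, and overlapped for the other 9; over all genes 55.8% did not overlap, 27.8% higher and 28.0% lower. With libraries scaled by their totals alone, 8 members were higher and 11 lower, and over all genes 2589 were higher and 4813 lower. The main scaling gave 3607 higher and 3644 lower over all genes. Upper-quartile scaling gave 14 members higher and 6 lower, and scaling factors of the DESeq2 type gave 13 and 6. The balance of rises and falls therefore rests on scaling the libraries by more than their totals.

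**Figure D1:**
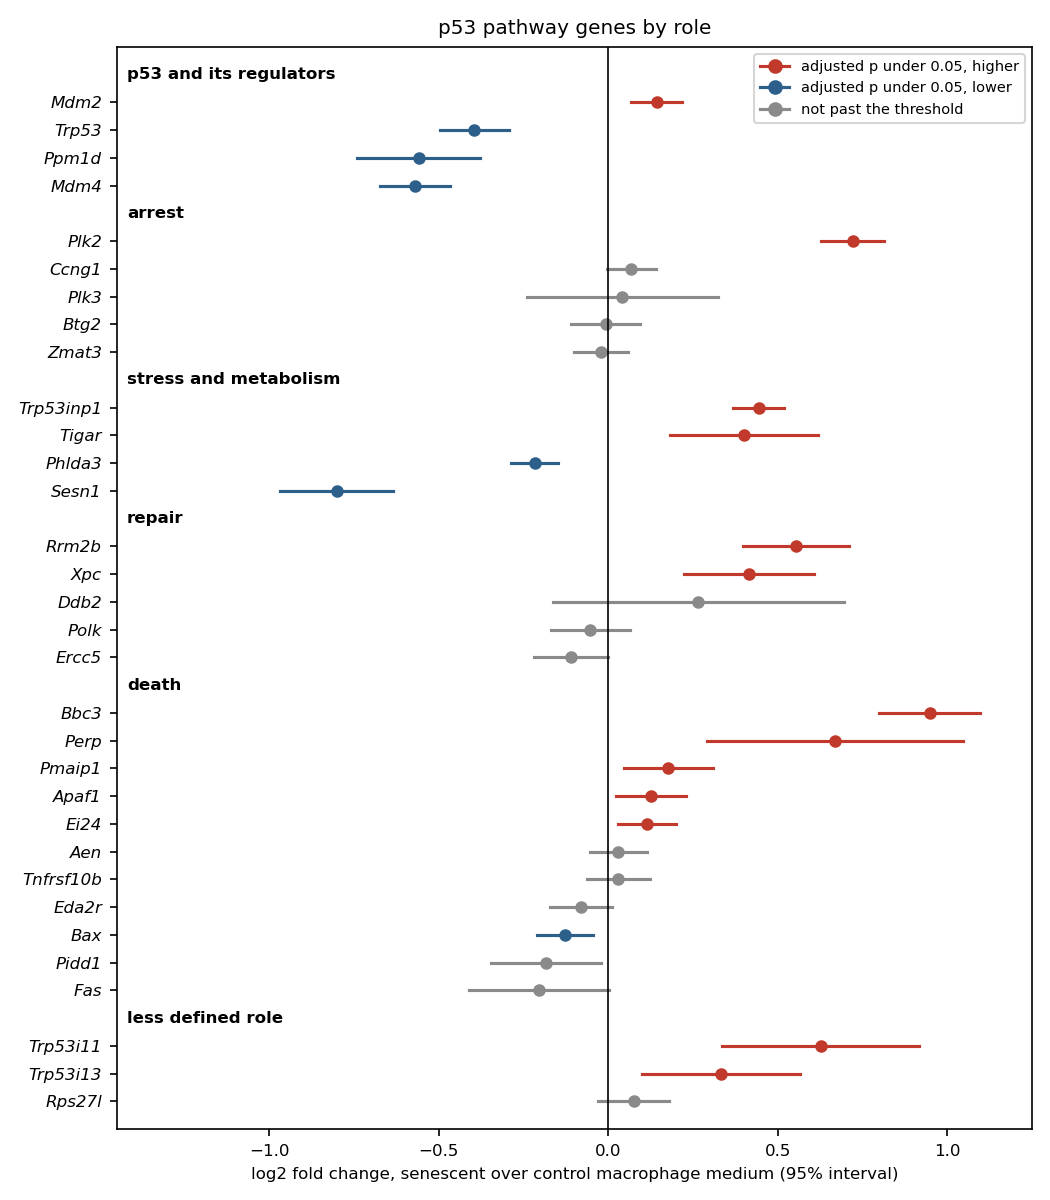
Log2 fold change of each p53 pathway gene, senescent over control macrophage medium, grouped by role and ordered within each role; lines are 95% intervals, red marks genes higher and blue genes lower past an adjusted p of 0.05, and grey marks the rest. Bbc3 at 0.95 and Sesn1 at -0.80 lie at the ends, and most arrest genes lie at the zero line.

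The branches did not move as blocks. Of the 5 arrest members 1 rose and 0 fell. They do not include Cdkn1a or Gadd45a, which were both higher and are described below with the other p53 target genes. Of the 5 repair genes 2 rose and 0 fell, and of the 11 death genes 5 rose and 1 fell. Of the 4 genes of stress and metabolism 2 rose and 2 fell, and among p53 and its 3 regulators 1 rose and 3 fell. The share called was 20% for arrest, 40% for repair and 54.5% for death. It was 100% for stress and metabolism and for p53 and its regulators, and 66.7% for the genes of less defined role. Over all genes tested it was 49.5%, with 24.6% higher and 24.9% lower. Taken in either direction, the repair and death shares lie near the 49.5%, and each role holds few genes. By direction, 20% of arrest, 40% of repair and 45.5% of death genes were higher, against 24.6% of all genes. In the same order 0%, 0% and 9.09% were lower, against 24.9%. Median log2 fold changes were 0.042 for arrest, 0.27 for repair, 0.030 for death, 0.092 for stress and metabolism and -0.48 for p53 and its regulators. For the genes of less defined role the median was 0.33. The repair median is the value of Ddb2, the scarcest member, which did not pass the threshold, and it was 0.17 without senescent-medium library 3. In library order 1, 2, 3 the arrest median, relative to the control mean, was 0.041, 0.025 and 0.076 in senescent-medium libraries and -0.051, 0.041 and -0.0083 in control-medium libraries, which overlap. The repair median was 0.15, 0.19 and 0.38 in senescent-medium libraries and 0.023, 0.072 and -0.080 in control-medium libraries, with no overlap. The death median was 0.057, -0.00014 and 0.049 in senescent-medium libraries and 0.0047, 0.015 and -0.026 in control-medium libraries, again overlapping. No test was made of a difference between branches.

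**Figure D2:**
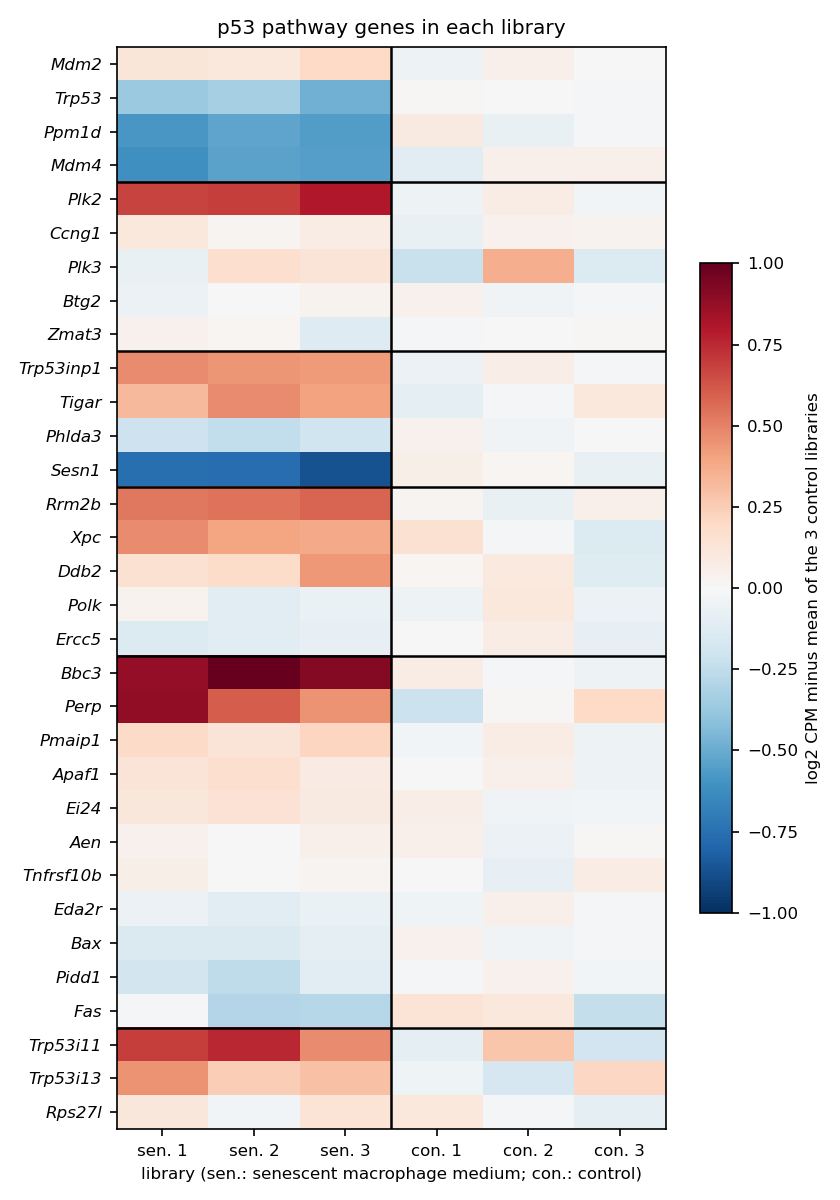
Log2 CPM of each p53 pathway gene in each library minus the mean of the 3 control-medium libraries, senescent-medium libraries on the left; black lines separate the roles in the order p53 and its regulators, arrest, stress and metabolism, repair, death and less defined role. Red rows (Plk2, Rrm2b, Bbc3) and blue rows (Mdm4, Ppm1d, Sesn1) are of like colour in all 3 senescent-medium libraries, and the rows of stress and metabolism and of death run both ways within the role.

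Trp53 and 2 of its restraining genes were lower, while Mdm2 was slightly higher. Trp53 stood at 56.6, 58.0 and 52.4 CPM in senescent-medium libraries and at 73.8, 73.1 and 72.6 CPM in control-medium libraries. All 3 senescent-medium libraries lay below all 3 control-medium libraries, and Trp53 fell by 23.9%, a log2 fold change of -0.39 ± 0.050 (edgeR, adjusted p = 7.68e-08). Throughout, ± gives the SE of a log2 fold change and, for CPM, the SD over 3 libraries. Mdm4, which binds p53 and blocks its activity, had 52.8, 55.8 and 55.2 CPM in senescent medium and 75.3, 83.8 and 83.8 CPM in control medium. Its libraries did not overlap, and the log2 fold change was -0.57 ± 0.051 (adjusted p = 7.14e-11, edgeR). Ppm1d encodes the phosphatase Wip1, which removes activating phosphates from p53 and from the damage kinases. It had 11.9, 12.4 and 12.1 CPM in senescent medium and 18.9, 16.9 and 17.7 CPM in control medium, a log2 fold change of -0.56 ± 0.089 (edgeR, adjusted p = 4.37e-06). These 3 falls kept their call and direction under all 17 alternatives tried.

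Mdm2, both the ligase of p53 and one of its targets, moved the other way. It had 251, 248 and 265 CPM in senescent-medium libraries and 223, 239 and 229.9 CPM in control-medium libraries. The ranges lay close without overlapping, and the rise was 10.4%, a log2 fold change of 0.14 ± 0.037 (edgeR, adjusted p = 0.0019). The call was lost with libraries scaled by their totals alone (0.062 on the log2 scale, with an adjusted p of 0.18, edgeR). Per kb of annotated exon (GENCODE release M21), Mdm2 was the most abundant of the 4, at 50.1 CPM per kb in senescent medium and 45.3 in control medium, against 13.8 and 18.1 for Trp53 in the same order. Mdm4, at 3.69 and 5.47, and Ppm1d, at 3.81 and 5.62 CPM per kb, were lower.

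**Figure D3:**
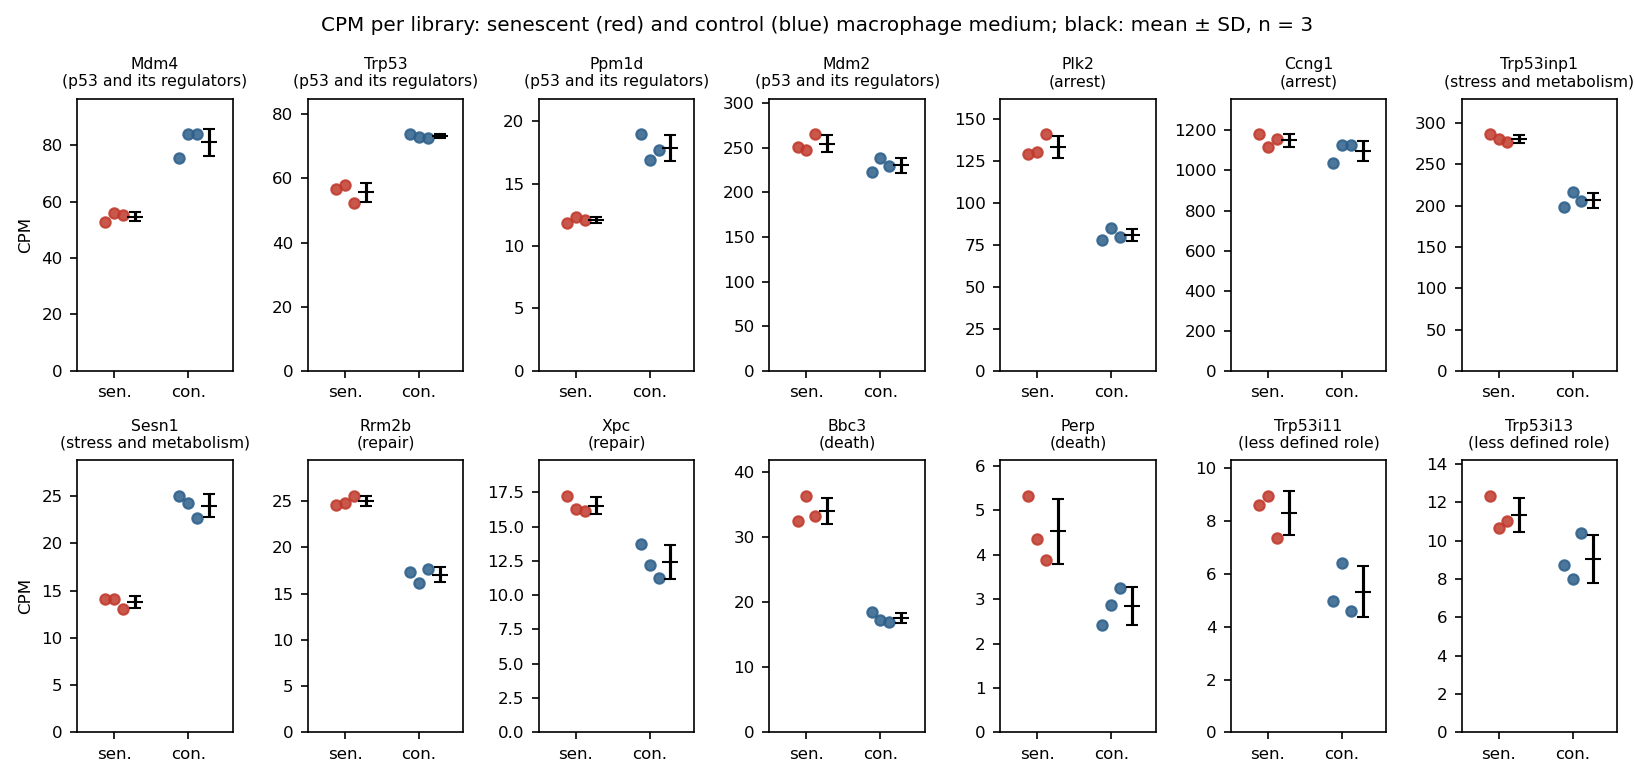
CPM in each library for p53 and its regulators and for the 2 members of each other role with the smallest adjusted p; senescent-medium libraries (red) are left of control-medium libraries (blue), and black marks are the mean ± SD of 3 libraries. The groups are apart in each panel except Ccng1, whose senescent-medium mean of 1151 CPM and control-medium mean of 1098 CPM lie within overlapping libraries.

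Of the arrest members, Plk2 alone passed the threshold. Cdkn1a and Gadd45a, arrest genes that were not members, were also higher in senescent medium (log2 fold changes of 0.15 and 1.40). The Cdkn1a call was lost with libraries scaled by their totals alone. Plk2 encodes a polo-like kinase that acts on centriole duplication and in checkpoint responses. It had 129, 130.2 and 141 CPM in senescent-medium libraries and 78.0, 85.1 and 79.5 CPM in control-medium libraries. All 3 senescent-medium values lay well above the control-medium values, with a log2 fold change of 0.72 ± 0.045 (edgeR, adjusted p = 2.13e-14). Its relative Plk3 was scarce, at 8.45 ± 0.756 CPM in senescent medium and 8.12 ± 1.89 CPM in control medium, with a 95% interval of the log2 fold change of -0.24 to 0.32, so a change of modest size in either direction was not detectable at this depth.

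Ccng1, which encodes cyclin G1, a partner of the phosphatase PP2A in p53 feedback, was the most abundant member. It had 1180.0, 1116 and 1156 CPM in senescent-medium libraries and 1039.6, 1129 and 1126 CPM in control-medium libraries. The libraries overlapped and the log2 fold change was 0.068 ± 0.035 (adjusted p = 0.11, edgeR); it passed the threshold with upper-quartile scaling (adjusted p = 0.038, edgeR) and stood at -0.013 with library totals alone. Btg2, an antiproliferative partner of mRNA deadenylases, had a log2 fold change of -0.0079 with a 95% interval of -0.11 to 0.093. Zmat3, an RNA-binding regulator of splicing, had -0.021 with an interval of -0.10 to 0.058; under scaling by totals it was lower, at -0.10 (adjusted p = 0.020, edgeR). Of Btg2, Zmat3 and Plk3, each changed sign when at least 1 library was left out.

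The 4 genes of stress and metabolism all passed the threshold, in opposite directions. Sesn1, whose product restrains the growth kinase mTORC1 when leucine is scarce, had 14.2, 14.1 and 13.1 CPM in senescent-medium libraries and 25.0, 24.3 and 22.7 CPM in control-medium libraries. Its libraries lay far apart, and the log2 fold change of -0.80 ± 0.082 (edgeR, adjusted p = 1.2e-09) was the lowest of all 32 members. Trp53inp1, a stress protein of autophagy and p53 activation, had 286, 280.3 and 277 CPM in senescent-medium libraries and 198, 216 and 205 CPM in control-medium libraries. It rose by 36.1%, a log2 fold change of 0.44 ± 0.037 (edgeR, adjusted p = 1.14e-11), with no overlap. Tigar, a phosphatase that diverts sugar from glycolysis towards antioxidant supply, was higher at 11.8 ± 0.614 CPM in senescent medium against 8.94 ± 0.621 CPM in control medium (log2 fold change 0.40 ± 0.11). Phlda3, which keeps the kinase Akt from the membrane, was lower at 410.1 ± 6.37 CPM in senescent medium against 477 ± 12.5 CPM in control medium (log2 fold change -0.22 ± 0.033). Per kb of exon, Phlda3 was second only to Ccng1 among the members in both media (263 CPM per kb in senescent medium and 306 in control medium, against 328 and 313 for Ccng1).

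In the repair branch 2 of 5 genes rose and the others did not pass the threshold. Rrm2b encodes the p53-inducible subunit of ribonucleotide reductase, which supplies DNA precursors outside S phase. It had 24.6, 24.8 and 25.6 CPM in senescent-medium libraries and 17.4, 16.1 and 17.7 CPM in control-medium libraries. The 2 groups were narrow and apart, with a log2 fold change of 0.55 ± 0.077 (edgeR, adjusted p = 4.14e-07). Xpc, which detects distorted DNA in nucleotide excision repair, had 17.2, 16.2 and 16.1 CPM in senescent-medium libraries and 13.7, 12.2 and 11.2 CPM in control-medium libraries. It rose without overlap, with a log2 fold change of 0.41 ± 0.094 (edgeR, adjusted p = 0.00044).

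Ddb2 and Ercc5, the other members that act in nucleotide excision repair, did not pass the threshold, and neither did Polk. Ddb2, the damage sensor for ultraviolet lesions, was the scarcest member, at 2.81 ± 0.317 CPM in senescent medium and 2.33 ± 0.179 CPM in control medium, with a log2 fold change of 0.27 and a 95% interval of -0.16 to 0.70. Of its exon length, 23.8% overlaps Acp2 on the opposite strand, and the strand setting of the counts is not given in the sources used here. Ercc5, the endonuclease XPG, had 50.2 ± 0.98 CPM in senescent medium and 54.1 ± 2.85 CPM in control medium (log2 fold change -0.11 ± 0.054, adjusted p = 0.090, edgeR); it passed the threshold without control-medium library 3 (adjusted p = 0.039) and with library totals alone (0.0042). Polk, a polymerase that copies across damaged bases, had a log2 fold change of -0.052 with an interval of -0.17 to 0.064. Without control-medium library 3 the repair branch therefore held 1 lower gene in place of 0.

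The death branch was led by Bbc3, which encodes Puma, a BH3-only protein that frees Bax and its relatives to open mitochondria. Bbc3 had 32.4, 36.3 and 33.2 CPM in senescent-medium libraries and 18.5, 17.3 and 17.0 CPM in control-medium libraries. All 3 senescent-medium values lay far above the control-medium values, with a log2 fold change of 0.95 ± 0.073 (edgeR, adjusted p = 2.35e-12), the highest of the 32 members. Perp, a membrane protein of cell contacts and p53-dependent death, was low, at 5.33, 4.37 and 3.89 CPM in senescent-medium libraries and 2.42, 2.86 and 3.26 CPM in control-medium libraries. The libraries did not overlap but spread widely within each medium, with a log2 fold change of 0.67 ± 0.19 (edgeR, adjusted p = 0.0033).

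Bax, the pore-forming effector on which Puma acts, moved the other way from Bbc3. It averaged 119.8 ± 2.43 CPM in senescent medium and 131 ± 3.86 CPM in control medium, and fell by 8.47% (log2 fold change -0.13 ± 0.040, adjusted p = 0.0088, edgeR). Of its exon length, 12.2% is shared with a predicted gene on the same strand. Pmaip1, which encodes the BH3-only protein Noxa, averaged 34.3 ± 1.06 CPM in senescent medium and 30.3 ± 1.41 CPM in control medium (log2 fold change 0.18 ± 0.064, adjusted p = 0.021, edgeR). Apaf1, the scaffold of the apoptosome, averaged 62.5 ± 1.86 CPM in senescent medium and 57.1 ± 1.95 CPM in control medium (0.13 ± 0.050, adjusted p = 0.037, edgeR). Ei24, a protein of the endoplasmic reticulum linked to autophagy and growth suppression, averaged 119 ± 2.24 CPM in senescent medium and 110.1 ± 4.62 CPM in control medium (0.11 ± 0.042, adjusted p = 0.024, edgeR).

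The last 3 rises were small and their calls fragile. Pmaip1 missed the threshold without senescent-medium library 1 or 3 (adjusted p = 0.057 and 0.075, edgeR) and without control-medium library 1 or 3 (0.055 and 0.090). Apaf1 missed it without senescent-medium library 1 or 2 (0.078 and 0.14) and without control-medium library 1 or 3 (0.060 and 0.15). Ei24 missed it without senescent-medium library 1 or 2 (0.053 and 0.098) and without control-medium library 2 or 3 (0.11 and 0.099). All 3 also missed it with DESeq2 and with library totals alone. Between 2 and 4 death genes were higher when a library was left out, as few as 2 without senescent-medium library 1 or control-medium library 3, and 2 were higher with DESeq2.

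The receptors of the death branch did not pass the threshold. Fas, the receptor for Fas ligand, had 22.8, 18.8 and 18.8 CPM in senescent-medium libraries and 25.3, 24.8 and 19.5 CPM in control-medium libraries. Senescent-medium library 1 and control-medium library 3 overlapped the other group, and the log2 fold change was -0.20 ± 0.099 (adjusted p = 0.096, edgeR). Fas was lower past the threshold without senescent-medium library 1 (log2 fold change -0.30, adjusted p = 0.014, edgeR), without control-medium library 3 (-0.31, adjusted p = 0.0054) and with the replicate number as a block (adjusted p = 0.031), which made 2 lower death genes in place of 1. With library totals alone, Fas, Eda2r and Pidd1 were all lower past the threshold (adjusted p = 0.016, 0.0040 and 0.0074, edgeR). Tnfrsf10b, the mouse TRAIL receptor, and Eda2r, the receptor for ectodysplasin A2, had log2 fold changes of 0.030 (95% interval -0.062 to 0.12) and -0.080 (-0.17 to 0.012). Pidd1, which activates caspase-2, had -0.18 ± 0.079 (adjusted p = 0.056, edgeR) and was lower past the threshold without senescent-medium library 3 (adjusted p = 0.048). Aen, an exonuclease induced by p53, had 0.030 with an interval of -0.054 to 0.11.

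Of the 3 members of less defined role, 2 rose. Trp53i11, a membrane protein gene first found as induced by p53, had 8.59, 8.95 and 7.36 CPM in senescent-medium libraries and 4.96, 6.41 and 4.61 CPM in control-medium libraries. The libraries did not overlap, with a log2 fold change of 0.63 ± 0.14 (edgeR, adjusted p = 0.00046). Trp53i13 had 12.3, 10.7 and 11.0 CPM in senescent-medium libraries and 8.73, 7.98 and 10.4 CPM in control-medium libraries. Its closest values nearly met, and the log2 fold change was 0.33 ± 0.11 (adjusted p = 0.016, edgeR), a call lost without senescent-medium library 1 (adjusted p = 0.088) or control-medium library 2 (0.12), with DESeq2 (0.066) and with library totals alone (0.070). Of its exon length, 15.2% overlaps Abhd15 on the opposite strand. Rps27l, a close relative of the ribosomal protein gene Rps27, averaged 88.1 ± 5.36 CPM in senescent medium and 83.7 ± 5.72 CPM in control medium (0.075 ± 0.051), passed the threshold without control-medium library 1 (adjusted p = 0.037, edgeR), and may share reads with near-identical copies.

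Other p53 target genes also ran both ways. Of 26 such genes, 10 were higher (38.5%, against 24.6% of all genes tested), 8 were lower (30.8%, against 24.9%) and 8 did not pass the threshold, with a median log2 fold change of 0.13 against -0.00096 over all genes tested. Gadd45a, a small stress protein of arrest and repair, was the most raised, at 33.8 ± 0.636 CPM in senescent medium against 12.8 ± 1.21 CPM in control medium (log2 fold change 1.40 ± 0.079, adjusted p = 1.31e-15, edgeR). Sesn2, the relative of Sesn1, rose to 120.2 ± 3.26 CPM in senescent medium, against 79.9 ± 0.936 CPM in control medium (0.59 ± 0.042), so the 2 sestrin genes moved in opposite directions. Pltp, a phospholipid transfer protein gene, changed by 0.56 ± 0.052. Of the exon length, 19.1% of Gadd45a and 19.3% of Pltp overlap another gene on the opposite strand, which for Pltp is Ctsa. Cdkn1a, which encodes the arrest effector p21, had 799, 780.4 and 792 CPM in senescent-medium libraries and 731, 699.8 and 703 CPM in control-medium libraries (0.15 ± 0.032, adjusted p = 0.00022, edgeR), a call lost under scaling by totals (adjusted p = 0.067). Gdf15, a secreted stress factor, was lower at 109.4 ± 4.53 CPM in senescent medium against 121 ± 2.04 CPM in control medium (-0.15 ± 0.042). Ckap2, Gtse1 and Psrc1, which are p53-responsive genes of the mitotic spindle, fell, with log2 fold changes of -1.12 ± 0.055, -0.68 ± 0.050 and -0.46 ± 0.049.

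**Figure D4:**
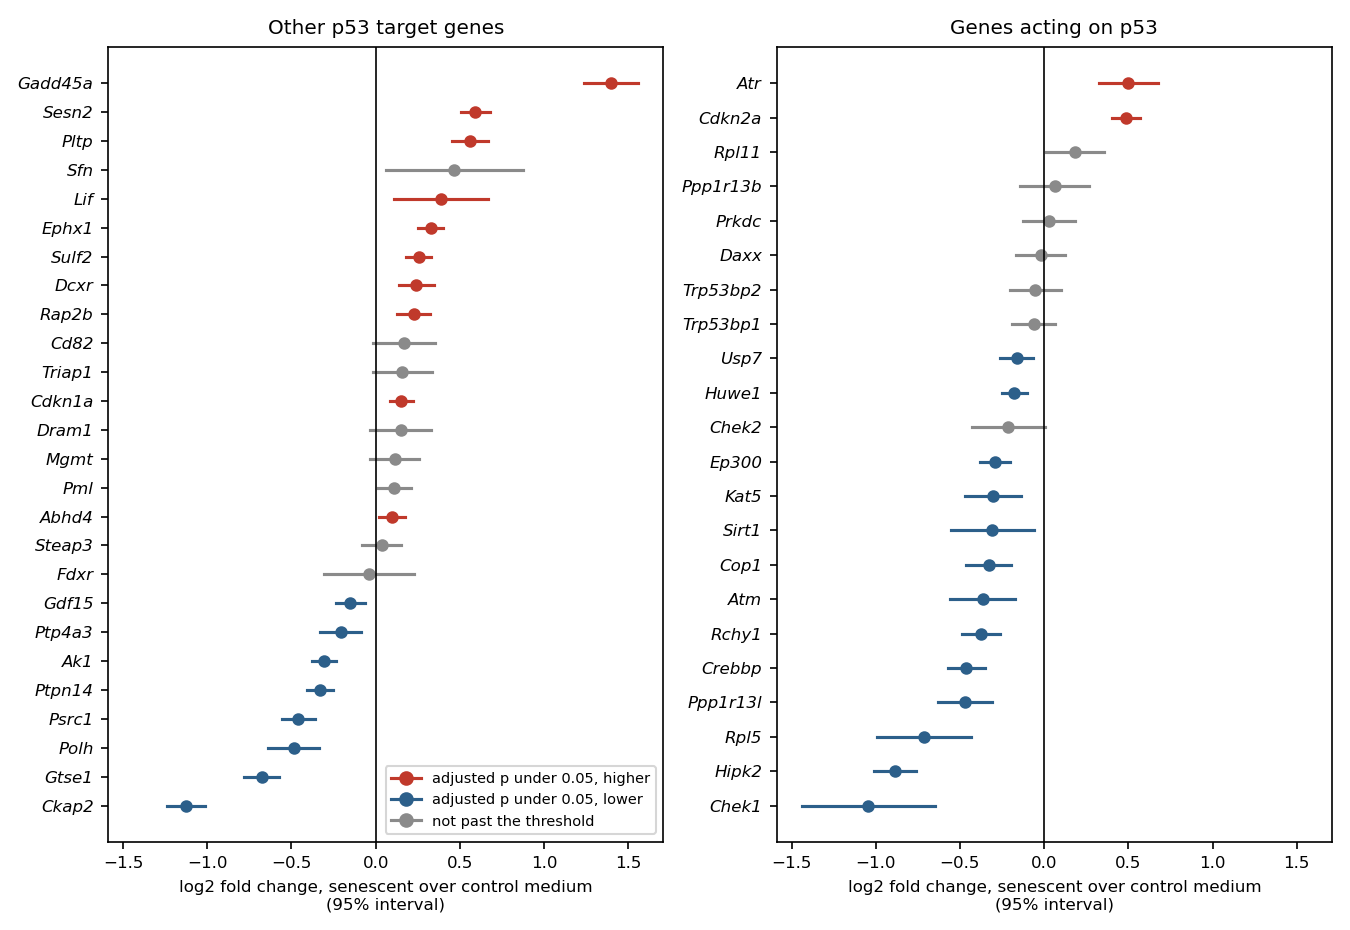
Log2 fold change, senescent over control macrophage medium, of 26 other p53 target genes (left) and 22 genes that act on p53 (right), with 95% intervals; red marks genes higher and blue genes lower past an adjusted p of 0.05, and grey marks the rest. The target genes reach from Gadd45a at 1.40 to Ckap2 at -1.12, and most genes that act on p53 lie left of zero.

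Among 22 genes that act on p53, 13 were lower (59.1%, against 24.9% of all genes tested), 2 were higher (9.09%, against 24.6%) and 7 did not pass the threshold. Their median log2 fold change was -0.25, against -0.00096 over all genes tested. The list pools genes that activate p53 with genes that restrain it, and both kinds were among the 13 that were lower. Hipk2, a kinase that phosphorylates p53 in the death response, fell to 45.4 ± 1.09 CPM in senescent medium, against 83.6 ± 8.57 CPM in control medium (-0.88 ± 0.060, adjusted p = 4.73e-12, edgeR). Crebbp, an acetyltransferase and coactivator, and Rchy1, a ubiquitin ligase of p53, fell with log2 fold changes of -0.46 ± 0.054 and -0.38 ± 0.056. The damage kinase gene Atm was lower at 19.3 ± 1.96 CPM in senescent medium against 24.9 ± 3.39 CPM in control medium (-0.37 ± 0.093), while its relative Atr was higher at 29.7 ± 2.13 CPM in senescent medium against 21.0 ± 2.92 CPM in control medium (0.50 ± 0.085). Cdkn2a was the other gene that rose (0.49 ± 0.040). Among its products is p19, which inhibits Mdm2, but counts per gene do not tell which of its transcripts rose. Chek2, the checkpoint kinase below Atm, had a log2 fold change of -0.21 ± 0.11 (edgeR, adjusted p = 0.10), and was lower past the threshold without control-medium library 1 (adjusted p = 0.016) and with library totals alone (0.025). Rpl5 and Rpl11, also in this list, have many near-identical processed copies, and their values are uncertain. Rpl5 is counted among the 13 lower genes.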

How the data were processed

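RNA of 6 libraries, 3 per medium, was read in pairs of 150 bp (labels' protocols). The authors deposited estimated counts per Ensembl gene, not normalized; STAR, DESeq2 and build mm39 are named, with no role, per the submitters' processing notes, while the counter, annotation and strand setting were not given in the sources used here. In each library 70.3% to 72.8% of values were whole to within 0.01, and all values were rounded before fitting. Each listed gene had at least 10 counts in sum. Symbols came from GENCODE M21 (GRCm38) by identifier (18092 of 18124 matched), without coordinates.

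Groups came from the sample titles. The test was edgeR 4.0.16 (R 4.3.3), quasi-likelihood F-test with robust dispersions, TMM scaling and edgeR's expression filter, two-sided, medium as the only term, Benjamini-Hochberg adjustment over 14644 genes and a threshold of 0.05. The SE of a log2 fold change was taken as its size over the root of F. CPM uses TMM-adjusted library sizes. Alternatives were DESeq2 1.42.0, limma-voom (limma 3.58.1), other scalings, filters and thresholds, a test against 1.2-fold, the replicate number as a block and each library left out. The test was tried on simulated counts. Same-group libraries differed by 2.75 to 8.81 times the sampling variance on average over genes, so no library's counts were a copy of another's. This measure cannot tell whether libraries came from the same RNA or culture.

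Members and lists were chosen with earlier results of these data known. Every member is named; full values are given for p53 and its regulators and the 2 members of each other role with the smallest adjusted p, and for some others chosen after their values were seen. Of the other lists, the 3 smallest adjusted p in each direction and 6 preset genes are named, and Rpl5 and Rpl11 for their copies.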

Additional observations from a re-analysis of the deposited data

How the results depend on the processing

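Of 19 called members, 10 kept call and direction under all 17 alternatives (Trp53, Mdm4, Ppm1d, Plk2, Sesn1, Trp53inp1, Rrm2b, Bbc3, Perp and Trp53i11), and 4 more (Tigar, Phlda3, Xpc and Bax) under all but the test against a 1.2-fold change; none of the 19 reversed. With library totals alone, 8 members were higher and 11 lower; 0 regulators, 2 death genes and 1 gene of less defined role were higher, and 1 arrest, 1 repair and 4 death genes were lower. Median log2 fold changes were then -0.56 (p53 and regulators), -0.038 (arrest), 0.011 (stress and metabolism), -0.051 (death), -0.025 (all members), 0.049 (other targets) and -0.33 (genes acting on p53), with all genes at -0.082, and Ccng1 (-0.013), Plk3 (-0.038), Tnfrsf10b (-0.051), Aen (-0.051) and Rps27l (-0.0057) changed sign. Upper-quartile scaling gave 2 higher arrest genes, a stress and metabolism median of 0.11 and Btg2 at 0.012. DESeq2 and an adjusted p of 0.01 each gave 2 higher death genes and 1 higher gene of less defined role. Against a 1.2-fold change, 6 members were higher; by role 0 regulators, 1 stress and metabolism gene, 1 repair gene, 2 death genes and 1 gene of less defined role were higher, 1 stress and metabolism gene and 0 death genes lower, and of the other lists 3 targets were higher and 4 lower and 6 genes acting on p53 lower. Leaving out single libraries gave 2 to 4 higher and 1 to 2 lower death genes, 0 to 1 lower repair genes, 1 to 3 higher genes of less defined role, and medians of -0.014 to 0.088 (arrest), 0.17 to 0.32 (repair), -0.00051 to 0.066 (death), 0.24 to 0.44 (less defined role) and 0.091 to 0.14 (other targets). Log2 fold changes then spanned zero for Btg2 (-0.030 to 0.020), Plk3 (-0.071 to 0.26), Zmat3 (-0.053 to 0.031), Polk (-0.094 to 0.0058), Tnfrsf10b (-0.010 to 0.066) and Aen (-0.00051 to 0.053). With the replicate number as a block, 2 death genes were lower, Fas being added, and 7402 genes were called in place of 7251. Deviations of same-numbered libraries correlated at 0.0019 to 0.026. The best control-medium partner had the same number for senescent-medium libraries 1 and 3, and was number 1 for library 2. Whether the numbers pair the libraries is not settled, because noise in low counts also lowers such correlations. Except by construction (a stricter threshold or fewer libraries), the cause of these shifts was not tested. The 4 scarcest members, Ddb2, Perp, Trp53i11 and Plk3, had SEs of 0.14 to 0.21.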
